A study of Homo sapiens with 14 samples.

Results

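Glucose enters cells through facilitative transporters of the SLC2A (GLUT) family and is trapped inside them by hexokinases, which phosphorylate it to glucose 6-phosphate. The mRNAs of 9 of these genes were followed in 2 human cancer cell lines in normoxia and hypoxia: the transporter genes SLC2A1, SLC2A3, SLC2A6, SLC2A8, SLC2A10 and SLC2A12, and the hexokinase genes HK1, HK2 and HKDC1. They were chosen by gene symbol from the 23106 genes counted, and all 9 were found in the counts of every library. The questions were which of them each line used and which responded to hypoxia.

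PC3 is a line from a prostate carcinoma and HCT116 a line from a colorectal carcinoma. Unmodified cells of each line spent 16 h at 21% O2 (normoxia) or at 0.5% O2 (hypoxia). Each condition had 4 biological replicates for PC3 and 3 for HCT116, and polyadenylated RNA was sequenced from all 14. PC3 cells were kept in DMEM/Hams F12 and HCT116 cells in McCoy's 5a, so a difference between the lines and a difference between the media cannot be told apart.

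SLC2A1 encodes GLUT1, the transporter behind basal glucose uptake in most cells, and SLC2A3 encodes GLUT3, a high-affinity transporter best known from neurons. SLC2A6 and SLC2A8 encode transporters that reside largely on membranes inside the cell, while SLC2A10 and SLC2A12 encode GLUT10 and GLUT12, less studied members of the family. HK1 is the housekeeping hexokinase, HK2 is the form of muscle, fat and many tumours, and HKDC1 is a hexokinase-like gene that lies beside HK1. HK1 and HK2 proteins dock on mitochondria at the VDAC channels. In hypoxia, the transcription factor HIF (hypoxia-inducible factor) binds DNA at the core motifs ACGTG and GCGTG, and genes of glucose uptake and glycolysis are among its best known targets.

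The depth of the libraries was 98021966 to 123935458 counts in normoxic PC3, 71228454 to 96159803 in hypoxic PC3, 136931675 to 147934177 in normoxic HCT116 and 133067391 to 150630928 in hypoxic HCT116. Levels are given as CPM, the count of a gene relative to the TMM-scaled size of its library, and a count of 3, the limit that a count of 0 allows, lay between 0.0201 and 0.0447 CPM. Such floors cover counting error only. In PC3, replicate 1 stood furthest from the other replicates in normoxia, and replicates 1 and 4 stood apart from replicates 2 and 3 in hypoxia. Results that turn on them are given with and without them. Of the markers used to check the lines, HOXB13, a prostate homeobox gene, averaged 81.0 CPM in normoxic PC3 and 10.0 CPM in normoxic HCT116, while KLK3 had a count of 0 in every library of both lines and KLK2 had 1 count in 1 hypoxic PC3 library and none elsewhere. FOLH1, another prostate marker, averaged 0.0069 CPM in normoxic PC3, while TMPRSS2 was present there at 20.4 CPM. CDX2, an intestinal homeobox gene, averaged 17.6 CPM in normoxic HCT116 and had no count in PC3, and the other 5 colon epithelium markers were under 1 CPM in both lines. CA9, NDRG1, ANKRD37 and EGLN3, known hypoxia-responsive genes, were all higher in hypoxia in both lines.

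Promoter sequences, the 250 bases before a RefSeq transcription start on GRCh38.p14, were matched for 8 of the 9 genes, all but SLC2A3. ACGTG or GCGTG on either strand occurred in a window of 4 of the 8 genes. Among 35116 RefSeq promoters of the same length, 43.2% held ACGTG or GCGTG and 18.5% held ACGTG. Among the 20253 of them that belong to counted genes, the shares were 49.4% and 20.2%. These shares are per window, whereas the 4 of 8 is per gene, and HK1 and HK2 had several windows. HK2, which responded in both lines and differently in each, has 2 annotated starts 1043 bases apart and carried the motifs before both, whereas SLC2A1, which responded in both lines as well, carried none in its window. These windows are therefore shown, 5′ to 3′ on the strand of the gene, with every ACGTG or GCGTG, read on either strand, in capitals (a CACGTG holds ACGTG once on each strand).
HK2, upstream start, chr2:74833877-74834126, plus strand: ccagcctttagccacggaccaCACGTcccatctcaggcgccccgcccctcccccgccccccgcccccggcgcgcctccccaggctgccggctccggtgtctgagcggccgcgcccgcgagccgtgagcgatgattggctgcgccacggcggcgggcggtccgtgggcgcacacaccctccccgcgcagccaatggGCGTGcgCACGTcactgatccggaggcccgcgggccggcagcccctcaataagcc
HK2, downstream start, chr2:74834920-74835169, plus strand: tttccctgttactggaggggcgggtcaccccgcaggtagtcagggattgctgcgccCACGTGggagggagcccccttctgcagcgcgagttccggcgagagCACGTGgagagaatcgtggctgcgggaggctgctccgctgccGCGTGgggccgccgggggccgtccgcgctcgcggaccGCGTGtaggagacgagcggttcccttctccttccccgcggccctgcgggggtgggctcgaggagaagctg
SLC2A1, chr1:42958869-42959118, minus strand: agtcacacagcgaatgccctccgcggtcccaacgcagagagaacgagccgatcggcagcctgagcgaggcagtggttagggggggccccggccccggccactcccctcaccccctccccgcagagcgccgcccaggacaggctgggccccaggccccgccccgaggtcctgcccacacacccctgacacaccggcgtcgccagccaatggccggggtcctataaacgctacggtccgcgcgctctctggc
The upstream HK2 window held 2 ACGTG and 1 GCGTG, and the one nearest the start ended 44 bases from it. The downstream HK2 window held 4 ACGTG, which are the 2 strands of 2 CACGTG, and 2 GCGTG. SLC2A6 held 3 GCGTG, SLC2A10 held 1 ACGTG, and 1 of the 7 windows of HK1 held 1 GCGTG. SLC2A8, SLC2A12 and HKDC1 held neither motif. A match of letters is a description of these windows, and the absence of one says nothing about sites elsewhere in the gene.

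Levels of different genes were compared per kilobase of exon (CPM per kb). In normoxic PC3, SLC2A1 (45.0 ± 11.8 CPM per kb, SD, n = 4), HK1 (39.8 ± 1.27) and HK2 (33.6 ± 1.61) stood well above the other 6 genes. The ranges of SLC2A1 and HK1 overlapped, while HK1 lay above HK2 in every library. SLC2A6 at 5.57, SLC2A10 at 3.65, SLC2A8 at 2.03, SLC2A12 at 0.812 and HKDC1 at 0.291 CPM per kb followed in that order with no overlap between neighbours, and SLC2A3 was last at 0.00941.

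In normoxic HCT116 the same 3 genes led, with SLC2A1 at 34.8 ± 3.11 (SD, n = 3), HK2 at 16.3 ± 1.45 and HK1 at 13.2 ± 0.257 CPM per kb. SLC2A6 at 3.23, SLC2A8 at 2.15, SLC2A3 at 1.03, SLC2A12 at 0.572 and HKDC1 at 0.168 CPM per kb came next, and no neighbours overlapped. SLC2A10, the fifth gene in PC3, was the last here. The order of HK1 and HK2 depended on the exon length used, which is 6876 bp for HK1 and 5918 bp for HK2 when the exons of all transcripts are joined. The longest single transcripts measure 3998 and 5626 bp.

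**Figure D1:**
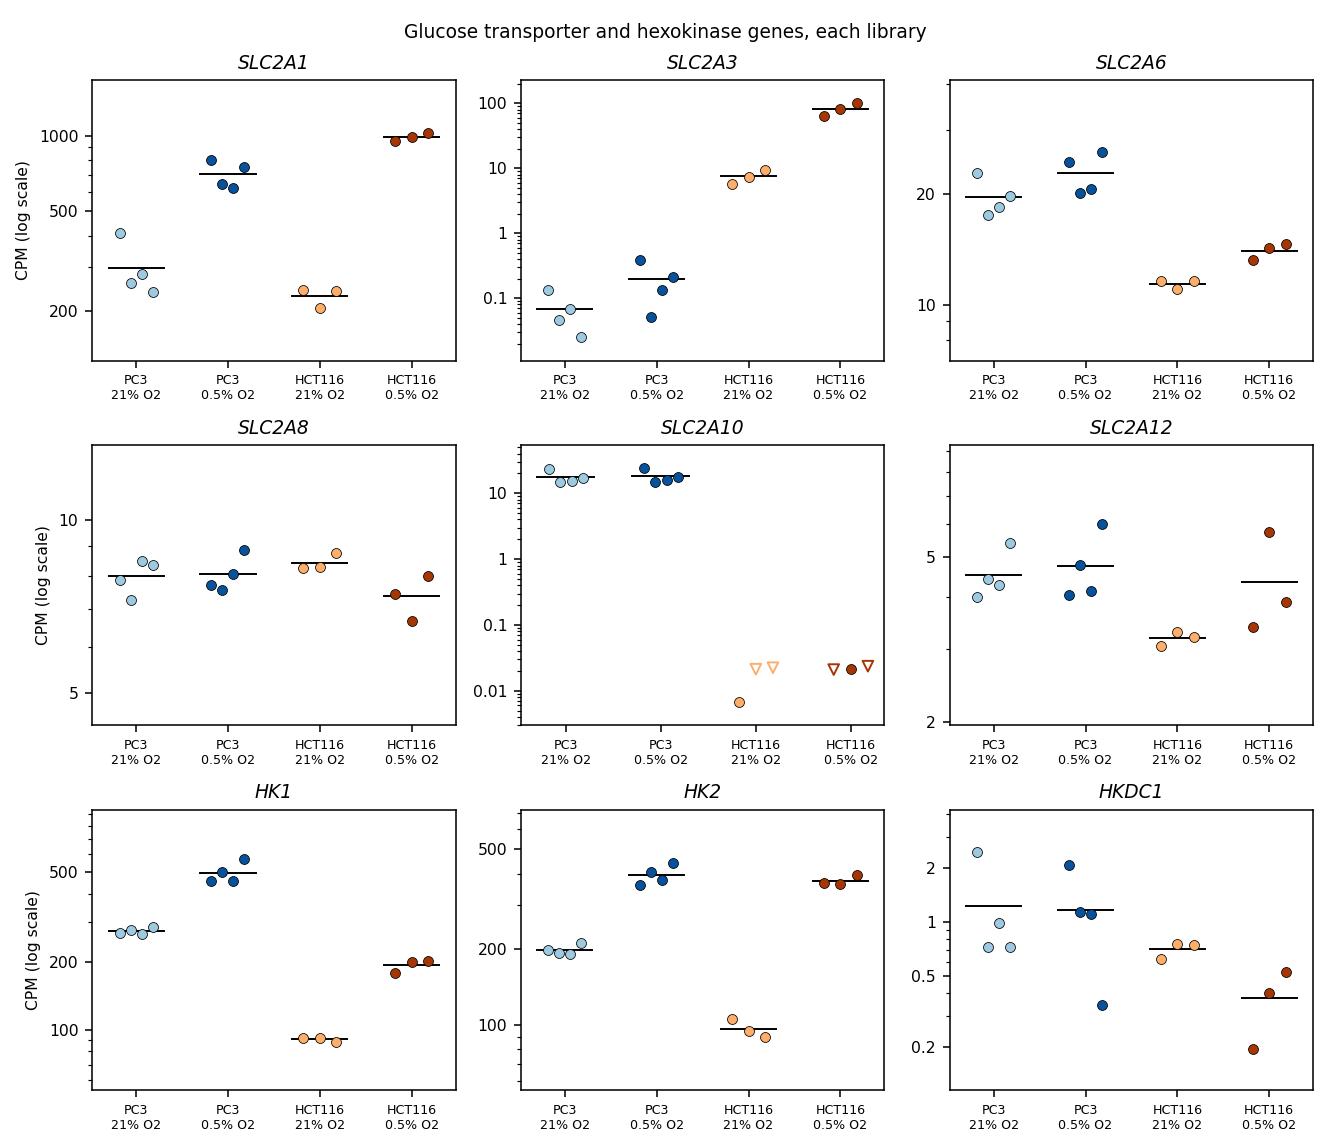
CPM of each gene in every library (log scale, a separate axis for each gene), with a bar at the group mean and points ordered by replicate number. Open triangles mark libraries with a count of 0, drawn at the level of 3 counts, and no mean is drawn for those groups. SLC2A1, HK1 and HK2 separate normoxia from hypoxia in both lines, SLC2A3 is high in HCT116 alone of the 2 lines, and SLC2A10 is present at 14.9 to 23.8 CPM in PC3 and at 3 counts or fewer per HCT116 library.

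Between the lines in normoxia, 6 of the 9 genes were higher in PC3 (HK1, HK2, SLC2A1, SLC2A6, SLC2A10 and SLC2A12) and SLC2A3 was lower. SLC2A8 and HKDC1 were not past the threshold, an adjusted p-value under 0.05 (quasi-likelihood test of edgeR, Benjamini-Hochberg adjustment over 15493 genes). Of those 15493 genes, 81.3% were called different between the lines, 42.4% higher and 38.9% lower in PC3, so most genes differed and the members' share is near that background.

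SLC2A10 and SLC2A3 showed the widest differences between the lines, in opposite directions. SLC2A10 (chr20:45338288-45364986 on GRCh37, plus strand) was counted at 2743, 1964, 1591 and 2083 reads in the normoxic PC3 replicates 1 to 4 and at 1, 0 and 0 reads in the normoxic HCT116 replicates. With 8381 counts against 1 in all, the depth-scaled ratio was 7507 (95% exact counting interval 1347 to 296553). In hypoxia the totals were 6039 and 3, a ratio of 2476 (847 to 12010).

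SLC2A3 (chr12:8071826-8171603 on GRCh37, minus strand) was counted at 16, 6, 7 and 3 reads in the normoxic PC3 libraries and at 35, 4, 13 and 14 in the hypoxic ones. In HCT116 it stood at 5.76, 7.33 and 9.39 CPM in normoxia, so no PC3 library reached the lowest HCT116 library. In normoxia it was lower in PC3 by a log2 fold change of -6.77 (SE 0.38, edgeR adjusted p = 1.89e-10), which is 109-fold. SLC2A14, a near-identical copy 28081 bases away, received 4 counts in all normoxic and 73 in all hypoxic HCT116 libraries, or 1.27 and 2.20 for every 1000 counts of SLC2A3, and 1 count in PC3. How reads that match both copies were shared between them is not stated, so SLC2A3 and SLC2A14 values are uncertain to that extent.

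Both main hexokinases were higher in PC3. HK1 (chr10:71029740-71161640, plus strand) stood at 267, 277, 266 and 284 CPM in normoxic PC3 and at 91.6, 91.4 and 88.5 CPM in normoxic HCT116, a log2 difference of 1.60 (SE 0.08, edgeR adjusted p = 1e-10). HK2 (chr2:75061254-75120486, plus strand) stood at 199, 193, 191 and 212 CPM in PC3 against 106, 94.5 and 89.3 CPM in HCT116, a log2 difference of 1.04 (SE 0.08, adjusted p = 1.55e-08). The groups did not overlap for either gene. The gap was wider for HK1, 3.02-fold, than for HK2, 2.06-fold, although the difference between these folds was not tested.

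The other differences between the lines were smaller. SLC2A6 (chr9:136336216-136344249, minus strand) was 1.73-fold higher in PC3 (log2 0.79, SE 0.11, edgeR adjusted p = 5.9e-06), with 17.6 to 22.8 CPM in normoxic PC3 and 11.01 to 11.6 in normoxic HCT116. SLC2A12 (chr6:134308719-134373762, minus strand) was 1.42-fold higher (log2 0.51, SE 0.18, adjusted p = 0.0189), and the call was lost without PC3 normoxia replicate 4 (0.41, adjusted p = 0.0594) or HCT116 normoxia replicate 1 (0.47, adjusted p = 0.0594). The exons of SLC2A12 overlap those of TBPL1 on the opposite strand over 51.2% of their length, and whether counting used strand is not given in the sources used here, so its level is uncertain.

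SLC2A1 (chr1:43391024-43424564, minus strand) was called higher in normoxic PC3 by 0.37 on the log2 scale (SE 0.15, edgeR adjusted p = 0.0372), but that call rested on replicate 1. Its normoxic PC3 libraries stood at 411, 259, 282 and 238 CPM and its normoxic HCT116 libraries at 243, 206 and 241 CPM, so the groups overlapped. Without PC3 normoxia replicate 1 the difference was 0.18 (adjusted p = 0.140), and without both replicate 1 libraries of PC3 it was 0.18 (adjusted p = 0.0894). Leaving out PC3 hypoxia replicate 4 or any single HCT116 library also put it over the threshold, with adjusted p between 0.0539 and 0.141. Upper-quartile scaling (0.31, adjusted p = 0.0816) and a fit of the normoxic libraries only (0.35, adjusted p = 0.0918) did so too.

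For SLC2A8 (chr9:130159417-130170703, plus strand) the lines differed by -0.078 (95% interval -0.28 to 0.12), with 7.25 to 8.47 CPM in normoxic PC3 and 8.24 to 8.75 in normoxic HCT116. HKDC1 (chr10:70980088-71027308, plus strand, ending 2431 bases before HK1) differed by 0.79 (95% interval -0.31 to 1.90, edgeR adjusted p = 0.168).

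In hypoxia, 3 of the 9 genes were higher in PC3 (SLC2A1, HK1 and HK2) and none was lower, and 5 of the 8 tested were higher in HCT116 (SLC2A1, SLC2A3, SLC2A6, HK1 and HK2) and none was lower. All 9 genes passed the filter on low counts in PC3, and SLC2A10 did not in HCT116. At an unadjusted p under 0.05, none was lower in PC3 and HKDC1 was lower in HCT116, and DESeq2 called none lower in PC3 and HKDC1 in HCT116. Of all genes tested, 11.3% were called in PC3 (6.03% higher, 5.29% lower) and 25.9% in HCT116 (14.6% higher, 11.3% lower). The median log2 fold change of the members tested was 0.22 in PC3 and 0.78 in HCT116, beside 0.0023 and 0.0018 over all genes tested. In bulk RNA, fewer transcripts per cell and fewer cells that carry the transcript cannot be told apart.

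**Figure D2:**
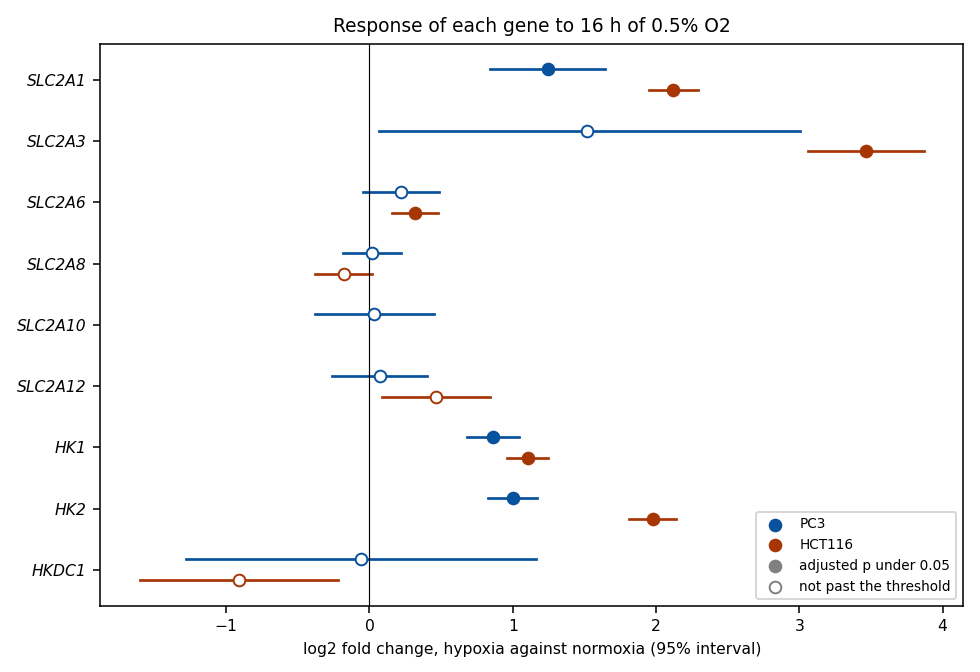
Log2 fold change of hypoxia against normoxia for each gene in PC3 (blue) and HCT116 (brown), with its 95% interval. Filled points passed the adjusted p threshold of 0.05 and open points did not. SLC2A1, HK1 and HK2 are filled in both lines, the HK2 intervals of the lines do not meet, and SLC2A10 has no HCT116 point because it was not tested there.

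SLC2A1 rose in both lines. In PC3 it went from 411, 259, 282 and 238 CPM in normoxic replicates 1 to 4 to 801, 641, 621 and 750 CPM in hypoxia, and in HCT116 from 243, 206 and 241 CPM to 953, 991 and 1026 CPM. Every hypoxic library lay above every normoxic library of its line. The log2 fold change was 1.24 in PC3 (SE 0.18, edgeR adjusted p = 0.00364), or 2.37-fold, and 2.12 in HCT116 (SE 0.08, adjusted p = 1.63e-08), or 4.35-fold. The normoxic PC3 library of replicate 1 was the highest of the 4. Without both PC3 libraries of replicate 1, the PC3 log2 fold change was 1.37 (adjusted p = 4.11e-04). Hypoxic SLC2A1 levels of the lines did not overlap either, with HCT116 the higher.

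In PC3, the libraries with the same replicate number deviated together, so the ratio of each hypoxic to its normoxic library could be taken. For SLC2A1 these 4 ratios ran from 1.95 to 3.15, for HK1 from 1.71 to 2.01 and for HK2 from 1.81 to 2.10. SLC2A1 thus varied more among PC3 replicates than either hexokinase.

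HK2 rose in both lines and was the only one of the 9 genes whose response was called different between them. In PC3 it went from 199, 193, 191 and 212 CPM to 360, 406, 378 and 441 CPM, and in HCT116 from 106, 94.5 and 89.3 CPM to 366, 365 and 396 CPM. Normoxic levels were separate between the lines, and the hypoxic levels overlapped. The log2 fold change was 1.00 in PC3 (SE 0.08, edgeR adjusted p = 1.43e-04) and 1.98 in HCT116 (SE 0.07, adjusted p = 1.63e-08), or 2.00-fold and 3.94-fold.

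The PC3 response of HK2 was smaller than that of HCT116 by -0.97 on the log2 scale (SE 0.12, edgeR test of the interaction, adjusted p = 3.47e-04). Over all 15493 genes, 2.32% were called for such a difference, 1.01% higher and 1.31% lower in PC3. The call for HK2 held in every alternative run, with values from -1.04 to -0.91 when single libraries were left out.

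HK1 rose in both lines. Its CPM went from 267, 277, 266 and 284 to 457, 499, 458 and 571 in PC3, and from 91.6, 91.4 and 88.5 to 178, 199 and 201 in HCT116. The hypoxic libraries were all above the normoxic ones, yet no hypoxic HCT116 library reached the lowest normoxic PC3 library. The log2 fold change was 0.86 in PC3 (SE 0.08, edgeR adjusted p = 4.36e-04) and 1.11 in HCT116 (SE 0.06, adjusted p = 5.12e-07), and their difference was -0.23 (95% interval -0.47 to 0.013, adjusted p = 0.345). That difference was past the threshold without PC3 hypoxia replicate 4 (-0.31, adjusted p = 0.0431).

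The number of HK2 reads per HK1 read needs no gene length or library scaling. It was 0.727 ± 0.0238 (SD, n = 4) in normoxic and 0.800 ± 0.0245 in hypoxic PC3, and 1.07 ± 0.079 (n = 3) in normoxic and 1.95 ± 0.112 in hypoxic HCT116. The normoxic and hypoxic ranges were separate in each line, and every HCT116 library lay above every PC3 library. As a share of the summed CPM per kb of the 3 hexokinases, HK2 went from 45.6 ± 0.761% to 48.1 ± 0.754% in PC3 and from 55.0 ± 1.83% to 69.3 ± 1.25% in HCT116. The sum itself was 1.89-fold that of normoxia in hypoxic PC3 and 3.09-fold in hypoxic HCT116.

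SLC2A3 had the largest fold change of the members in HCT116. It went from 5.76, 7.33 and 9.39 CPM in normoxia to 65.0, 81.0 and 99.9 CPM in hypoxia, with no overlap. The log2 fold change of 3.47 (SE 0.18, edgeR adjusted p = 2.15e-07), or 11.1-fold, was the 9th highest of 14120 genes. In PC3, where the counts were 35 or fewer per library, its log2 fold change was 1.52 (SE 0.66, edgeR adjusted p = 0.164). The 95% interval ran from 0.067 to 3.01, and the groups overlapped. The difference of the responses was -1.92 (SE 0.70, adjusted p = 0.181). With the replicate number as a block it was -1.98 (adjusted p = 0.00646). That fit also paired the HCT116 libraries by number, whose deviations correlated by 0.0729, 0.406 and -0.0762 for replicates 1 to 3.

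For SLC2A1 the difference of the responses, -0.86 (SE 0.22, edgeR adjusted p = 0.0515), fell just outside the threshold. With the replicate number as a block, which again paired the HCT116 libraries by number, it was -0.84 (adjusted p = 0.00545). Without both PC3 libraries of replicate 1 it was -0.74 (adjusted p = 0.00727). Leaving out PC3 replicate 1 or 4 of either condition singly also put it past the threshold, with values from -0.96 to -0.67. The difference was past it as well with DESeq2 (-0.85, adjusted p = 0.00726), upper-quartile scaling (-0.91, adjusted p = 0.0445), total-count scaling (-0.89, adjusted p = 0.0451) and a filter of at least 10 counts in every library (-0.87, adjusted p = 0.0433). It stayed outside with median-of-ratios scaling, without the low-count filter and without any single HCT116 library. The same held without PC3 replicate 2 or 3 of either condition.

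Despite its fold change, SLC2A3 remained a minor share of the transporter mRNA. SLC2A1 made up 78.4 ± 2.94% of the summed CPM per kb of the 6 transporters in normoxic PC3 and 89.0 ± 0.316% in hypoxic PC3 (SD, n = 4), and 83.2 ± 1.24% and 89.3 ± 1.10% in HCT116 (n = 3). SLC2A3 made up 2.48 ± 0.582% in normoxic and 6.71 ± 1.11% in hypoxic HCT116. SLC2A10 was 6.44 ± 0.653% of the sum in normoxic and 3.10 ± 0.371% in hypoxic PC3. The hypoxic sum was 2.09-fold the normoxic one in PC3 and 4.01-fold in HCT116.

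**Figure D3:**
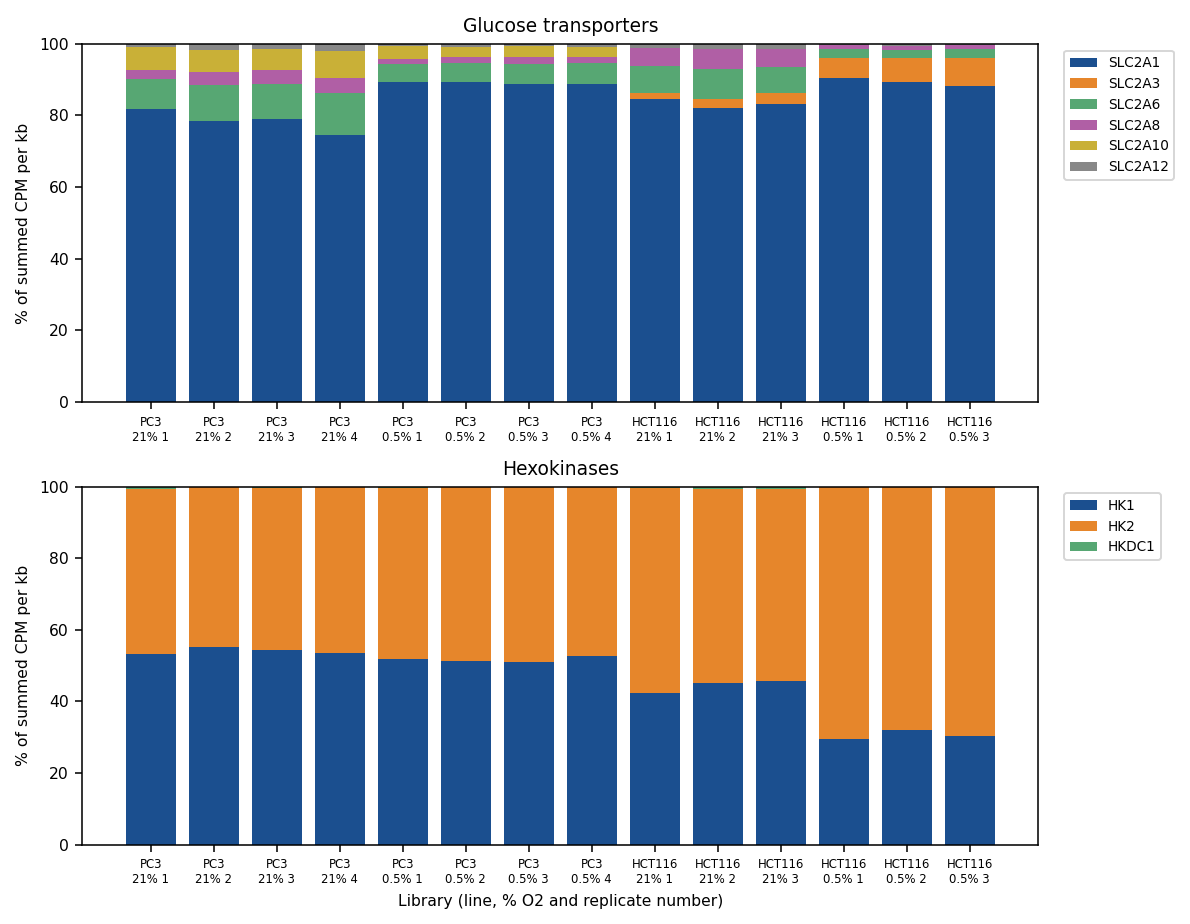
Share of each gene, in percent, of the summed CPM per kb of the 6 transporters (top) and of the 3 hexokinases (bottom) in each of the 14 libraries. SLC2A1 takes 74.6 to 90.5% of the transporter sum in every library, SLC2A10 is seen in PC3 and SLC2A3 in HCT116, and the HK2 share of hypoxic HCT116 is the highest of the 4 groups.

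In hypoxic libraries SLC2A1 led in both lines, at 106 ± 13.1 CPM per kb in PC3 (SD, n = 4) and 150 ± 5.48 in HCT116 (n = 3). HK1 (72.1 ± 7.79) and HK2 (66.9 ± 5.91) followed in PC3 with overlapping ranges. In HCT116 HK2 at 63.5 ± 2.96 stood 2.27-fold over HK1 at 28.0 ± 1.84. SLC2A3 moved up there from the sixth place to the fourth, at 11.3 ± 2.41 CPM per kb. The gap between HK1 and HK2 depended on the exon length used here as well. With the longest transcript, HK2 and HK1 made up 58.1% and 41.9% of the hexokinase sum in hypoxic HCT116. In hypoxic PC3 they made up 36.2% and 63.6%.

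SLC2A6 rose in HCT116 and was not called in PC3. It went from 22.8, 17.6, 18.5 and 19.8 CPM to 24.5, 20.1, 20.7 and 26.2 CPM in PC3, where the groups overlapped although each hypoxic library was above the normoxic one of the same number. In HCT116 it went from 11.6, 11.01 and 11.6 CPM to 13.2, 14.2 and 14.6 CPM, with no overlap. The log2 fold change was 0.22 in PC3 (SE 0.12, edgeR adjusted p = 0.257) and 0.32 in HCT116 (SE 0.07, adjusted p = 0.00899). The replicate block brought the PC3 value, also 0.22, past the threshold (adjusted p = 0.0417). The HCT116 call was lost without normoxia replicate 2 (0.28, adjusted p = 0.0526) and in a single fit over the 14 libraries (0.30, adjusted p = 0.101).

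SLC2A8, SLC2A10 and SLC2A12 were not called in either line. SLC2A8 ranged from 7.25 to 8.86 CPM over the PC3 libraries, with a log2 fold change of 0.015 (95% interval -0.19 to 0.22). In HCT116 it stood at 8.24, 8.29 and 8.75 CPM in normoxia and at 7.44, 6.68 and 7.98 CPM in hypoxia. These groups did not overlap, and the log2 fold change was -0.18 (95% interval -0.38 to 0.021, edgeR adjusted p = 0.171). Total-count scaling put it past the threshold (-0.27, adjusted p = 0.0457), and moved the median of all genes in HCT116 to -0.090.

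SLC2A10 stood at 23.0, 15.1, 15.4 and 17.3 CPM in normoxic PC3 and at 23.8, 14.9, 15.8 and 17.6 CPM in hypoxic PC3. The log2 fold change was 0.034 (95% interval -0.38 to 0.45). Replicate 1 was the highest in both conditions, and the 4 replicates stood in the same order in both. In HCT116 the only counts were 1 in a normoxic and 3 in a hypoxic library, so a response was not detectable at this depth.

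SLC2A12 stood at 4.00, 4.43, 4.28 and 5.40 CPM in normoxic and 4.06, 4.79, 4.14 and 5.99 CPM in hypoxic PC3. The log2 fold change was 0.071 (95% interval -0.26 to 0.40). In HCT116 it stood at 3.05, 3.30 and 3.20 CPM in normoxia and at 3.39, 5.73 and 3.90 CPM in hypoxia. Hypoxia replicate 2 was the highest there. The HCT116 log2 fold change of 0.46 (SE 0.17, edgeR adjusted p = 0.0688) was outside the threshold. It was past it with DESeq2 (0.45, adjusted p = 0.0316), without the low-count filter (adjusted p = 0.0423), and without hypoxia replicate 1 (0.61, adjusted p = 0.0278).

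HKDC1 was the lowest hexokinase in every library. In PC3 it stood at 2.47, 0.728, 0.989 and 0.729 CPM in normoxia and at 2.09, 1.14, 1.11 and 0.343 CPM in hypoxia. Replicate 1 was again the highest in both conditions, and the log2 fold change of -0.058 had a 95% interval of -1.28 to 1.16. In HCT116 it stood at 0.623, 0.758 and 0.747 CPM in normoxia and at 0.196, 0.403 and 0.528 CPM in hypoxia, from 28 to 107 counts per library, with no overlap. The HCT116 log2 fold change of -0.91 (SE 0.32, edgeR adjusted p = 0.0538) was just outside the threshold. It was past it with DESeq2 (-0.92, adjusted p = 0.0279), without the low-count filter (-0.91, adjusted p = 0.0395), and without hypoxia replicate 3 (-1.22, adjusted p = 0.0356). So it was with upper-quartile scaling (adjusted p = 0.0471), total-count scaling (0.0187), at least 10 counts in every library (0.0493) and the replicate block (0.0259). It stayed outside with median-of-ratios scaling, in one fit over 14 libraries and without any other single library.

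Across the 14 libraries, with log2 CPM centred within each line, SLC2A1, HK1 and HK2 followed one another closely (Pearson r of 0.97 for HK1 with HK2, 0.97 for SLC2A1 with HK2 and 0.95 for SLC2A1 with HK1). These libraries share the oxygen contrast, so the values describe likeness only. Among 12630 genes, those most like SLC2A1 were KCTD11 (0.994), the neuronal enolase ENO2 (0.992) and SLC35E1 (0.991). HK1 was most like EGLN1 (0.993), an oxygen-sensing prolyl hydroxylase, RIMKLA (0.993) and the collagen crosslinking enzyme LOXL2 (0.992). HK2 was most like the histone demethylase KDM4B (0.993), PFKFB4 (0.991), which sets fructose 2,6-bisphosphate, and BNIP3 (0.990), a mitophagy receptor. Patterns closest to SLC2A3 were those of PRKCDBP (0.980), XYLT1 (0.965) and CIC (0.964).

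Patterns close to SLC2A6 included those of NPC1 (0.955), which exports cholesterol from lysosomes, and PLD3 (0.950). The closest to SLC2A10 were IL1RL1 (0.977), TMEM86A (0.974) and MMP10 (0.972), to SLC2A12 the pentose phosphate enzyme PGD (0.933), LIPG (0.927) and AGPAT4 (0.924), and to SLC2A8 KHDC1 (0.815), HOTAIRM1 (0.800) and LSM10 (0.793). HKDC1, whose mean was under 1 CPM, was not compared. The values for SLC2A10, with 3 counts or fewer in each HCT116 library, rest mainly on the PC3 libraries. Those for SLC2A3, with 35 counts or fewer in each PC3 library, rest mainly on the HCT116 libraries.

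Of the remaining 8 genes of the SLC2A family, SLC2A13 ranged from 1.74 to 2.31 CPM in normoxic PC3 and from 9.35 to 11.4 CPM in normoxic HCT116, and SLC2A11 averaged 4.25 and 4.20 CPM. SLC2A4 averaged 1.88 CPM in normoxic HCT116, and the others were under 1 CPM in every library. In PC3, 2 of them were tested and none was called. In HCT116, 5 were tested: SLC2A11 (0.32, SE 0.10, edgeR adjusted p = 0.0377) and SLC2A14 (4.14, SE 0.73, adjusted p = 0.00186) were higher in hypoxia and SLC2A4 (-0.53, SE 0.16, adjusted p = 0.0304), the insulin-responsive transporter of muscle and fat, was lower. SLC2A14 had 2, 2 and 0 counts in normoxic and 27, 16 and 30 counts in hypoxic HCT116 libraries.

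Among the 6 SLC5A genes searched, which belong to the sodium-coupled transporter family, 1 was tested for a response to hypoxia in PC3 and 3 in HCT116. Only SLC5A3, a myo-inositol transporter, was called for such a response. SLC5A3 rose by 1.95 on the log2 scale in PC3 (SE 0.18, edgeR adjusted p = 3.56e-04). Its CPM went from 96.7 to 115 over the normoxic libraries to 322 to 555 over the hypoxic ones. In HCT116 it rose by 0.40 (SE 0.07, adjusted p = 0.0014), from 32.1 to 35.9 CPM to 43.1 to 44.6 CPM. Its response was the larger in PC3, by 1.55 on the log2 scale, a difference past the threshold of the interaction test and opposite in direction to that of HK2.

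ADPGK, an ADP-dependent kinase that also phosphorylates glucose, was not called in either line. It had log2 fold changes of -0.040 in PC3 (SE 0.07) and -0.021 in HCT116 (SE 0.06). HK3 and GCKR were not tested in either line.

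TXNIP and ARRDC4 encode arrestin-like proteins that restrain glucose uptake. TXNIP was at 201 to 292 CPM in normoxic and 184 to 209 CPM in hypoxic PC3 (-0.31, SE 0.11, edgeR adjusted p = 0.116), and had 0 to 2 counts in every HCT116 library. ARRDC4 fell by 0.63 on the log2 scale in PC3 (SE 0.17, adjusted p = 0.0415), and rose by 1.49 in HCT116 (SE 0.19, adjusted p = 2.74e-04). The difference of the ARRDC4 responses, -2.11, was past the threshold.

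Genes that take glucose 6-phosphate further were called in part. Of 8 tested, PC3 had 2 that rose in hypoxia and HCT116 had 5, and none fell. The median log2 fold changes were 0.10 and 0.29. GPI, which makes fructose 6-phosphate, rose by 0.68 in PC3 (SE 0.14) and 1.63 in HCT116 (SE 0.07), and PGM1, which links the pool to glycogen, rose by 0.69 (SE 0.10) and 1.21 (SE 0.08). H6PD (0.82), G6PC3 (0.29) and PGLS (0.28) rose in HCT116.

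Below fructose 6-phosphate, 12 of the 15 glycolysis genes tested were higher in hypoxia in each line and none was lower. The median log2 fold change was 0.65 in PC3 and 0.94 in HCT116. PGK1 rose by 1.03 in PC3 (SE 0.12) and 1.54 in HCT116 (SE 0.10), and LDHA by 0.84 (SE 0.11) and 1.66 (SE 0.07). PFKM, LDHB and ENO3 were not called in either line. Of the 3 VDAC genes, VDAC1 was called in HCT116 (0.18, SE 0.06, edgeR adjusted p = 0.0421) and none in PC3 (0.14 to 0.20).

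**Figure D4:**
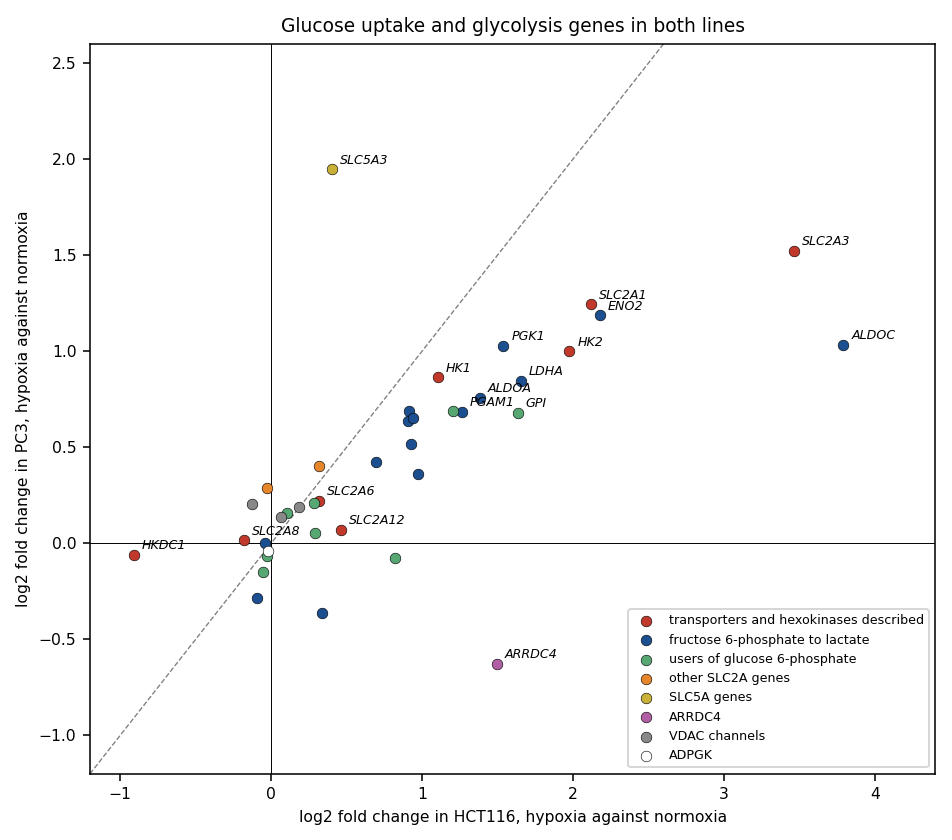
Log2 fold change of hypoxia against normoxia in HCT116 (horizontal) and PC3 (vertical) for the genes of the lists that were tested in both lines, coloured by list. The dashed line marks equal change. SLC2A1, SLC2A3, HK1 and HK2 lie below it among the glycolysis genes, SLC5A3 lies above it, and ARRDC4 lies below 0 in PC3 alone of the 2 lines.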

How the data were processed

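The 14 libraries were prepared with polyA selection and spiked with ERCC RNA. According to the study's methods, the authors removed ERCC reads, aligned the rest to GRCh37 with HISAT2 (2.05, as named there) and counted them on RefSeq genes with HTSeq (0.5.4p3, intersection-strict mode). The deposited values are raw counts of reads per gene, without normalisation. The RefSeq release and the strand setting of counting are not given in the sources used here, and ERCC counts were not used here.

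Groups were taken from the sample labels. Counts were tested with edgeR 4.0.16 in R 4.3.3 (filterByExpr by condition, TMM scaling, quasi-likelihood test, two-sided, Benjamini-Hochberg adjustment over all genes tested, threshold 0.05), in each line apart (8 and 6 libraries). The difference of the responses and the contrast of the lines were fitted over all 14 libraries. TMM takes most genes as unchanged, so a shift in total mRNA is not visible in these values. Depth limits precision through the floor of 3 counts. Levels are CPM after TMM over 14 libraries, and CPM per kb divides them by the joined exon length in GENCODE v44 lifted to GRCh37. Intervals of log2 fold changes cover 95%, and ratios of counts carry an exact binomial interval for counting error only. Promoters are RefSeq sequences on GRCh38.p14. The 14 libraries of count data differed between all replicate pairs by at least 12.1 chi-square units per gene, so each was counted as a replicate.

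The 9 genes, the lists of other genes and the tests were chosen with earlier results of these data known. Genes outside the 9 are named where a list gene passed the threshold, where a list had 5 or fewer genes or its uncalled genes are given, or among the 3 most similar patterns (mean of at least 1 CPM, log2 of CPM plus 0.5). The pairing of PC3 libraries by replicate number was read from the correlation of deviations from the condition means (0.844, 0.540, 0.359 and 0.421 for replicates 1 to 4). In HCT116 these were 0.0729, 0.406 and -0.0762, so the numbers were not taken as pairs outside the replicate block. Alternatives were other scalings (by median of ratios, by upper quartile, by total count alone), DESeq2 1.42.0, no low-count filter, at least 10 counts in every library, the replicate block, one fit over 14 libraries or the 7 normoxic ones, the longest transcript as length, and each library left out in turn. Leaving out both PC3 libraries of replicate 1 was added after the values were seen. Results for some genes of the lists are not reported here. The scripts were tested on simulated data.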

Additional observations from a re-analysis of the deposited data

Results flagged for a closer look

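HKDC1 in normoxic PC3 had 1 library far from the other 3: replicate 1 stood at 2.47 CPM, against 0.728 to 0.989 CPM in the others. Of 22 groups of 4 PC3 libraries examined, this was the only 1 with such a library, and chance would flag 1.1. The hypoxic library of replicate 1 was also the highest of its group.

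The responses of 9 of the 47 glucose genes tested differed between the lines by edgeR's interaction test, and 8 of the 9 were lower in PC3. Over all 15493 genes tested, 2.32% were called, 1.01% higher and 1.31% lower in PC3. On the log2 scale, PC3 minus HCT116, the differences were -2.74 for ALDOC, -2.11 for ARRDC4, -0.98 for ENO2, -0.97 for HK2, -0.94 for GPI, -0.88 for H6PD, -0.80 for LDHA and -0.60 for PFKL. SLC5A3 differed the other way, by 1.55. ALDOC, an aldolase, averaged 15.6 and 32.0 CPM in normoxic and hypoxic PC3 and 13.3 and 183 CPM in normoxic and hypoxic HCT116, so its lines were close in normoxia and apart in hypoxia.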

How the results depend on the processing

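Of 655 alternative values of the members' fold changes, 599 kept their direction and their side of the threshold, 25 passed it, 15 fell outside it and 16 turned their sign. Members called higher in PC3 numbered 3, and 4 with the replicate block. In HCT116 they numbered 5, against 4 in one fit over 14 libraries, 6 with DESeq2, no filter or the replicate block, and 4 to 6 without single libraries. For HCT116, where none was lower, 1 was lower with upper-quartile scaling, DESeq2, no filter, at least 10 counts or the replicate block, and 2 with total counts, with 0 to 1 when a library was left out. For the difference of responses, 1 was lower, against 2 with upper-quartile scaling, total counts, DESeq2, at least 10 counts or both PC3 libraries of replicate 1 left out, 3 with the replicate block, and 1 to 3 without single libraries. For the line contrast, 6 were higher, and 4 to 6 without single libraries. With upper-quartile scaling, the normoxic libraries only, at least 10 counts or both PC3 libraries of replicate 1 left out, 5 were higher. In the same contrast 1 was lower, and 0 with at least 10 counts, since SLC2A3 was then not tested.

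Signs turned for small log2 values. SLC2A8 in PC3 (0.015) gave -0.029 with upper-quartile scaling, -0.092 with total counts and -0.030 to 0.049 without single libraries. SLC2A10 in PC3 (0.034) gave -0.011, -0.070 and -0.14 to 0.20 under the same settings. SLC2A12 in PC3 (0.071) gave -0.040 with total counts and -0.054 to 0.16 without single libraries. HKDC1 in PC3 (-0.058) gave 0.11 without both replicate 1 libraries and -0.51 to 0.55 without single libraries. The SLC2A10 difference of responses ran from -2.92 to 1.71 without single libraries, and SLC2A8 between the lines (-0.078) was 0.0022 with total counts. Total counts moved the median of all genes to -0.10 in PC3 and to 0.13 between the lines.

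With the longest transcript as length, the HK2 share of the hexokinases was 34.0% in normoxic and 36.2% in hypoxic PC3, and 42.9% and 58.1% in HCT116. The SLC2A1 share of the transporters was 85.5% and 93.0% in PC3 and 87.7% and 91.6% in HCT116.

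The counts over all genes in PC3 (863 higher, 757 lower) were 2125 and 1949 with the replicate block, 562 and 1733 with total counts, 1383 and 1185 with DESeq2, and 364 to 1143 higher and 189 to 942 lower without single libraries. In HCT116 (2061, 1597) they were 938 and 795 in one fit over 14 libraries and 1286 and 3146 with total counts. For the difference of responses (156, 203) they were 596 and 710 with the replicate block, 467 and 504 with DESeq2, and 78 to 294 and 94 to 423 without single libraries. The replicate block brought SLC2A6 in PC3, SLC2A12 and HKDC1 in HCT116 and the SLC2A1 and SLC2A3 differences of responses past the threshold. All of these fits but that of SLC2A6 in PC3 paired the HCT116 libraries by number, which their correlations give little ground for. How much the pairing of each line added to the differences of responses was not tested. SLC2A12 and HKDC1 in HCT116 and the SLC2A1 difference were also past the threshold with DESeq2 without the block. The block was not run for the line contrast, as numbers lie within a line.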
